A study of Mus musculus with 6 samples.

Results

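Collagen hydroxylation and crosslinking enzymes are the prolyl hydroxylases, the lysyl hydroxylases and the lysyl oxidases that modify collagen inside and outside the cell. The 10 genes described here are P4ha1, P4ha2, P4hb, Plod1, Plod2, Plod3, Lox, Loxl1, Loxl2 and Loxl3, taken from a list by their roles, among 19938 genes measured in all. Each gene was read through its probeset with exactly 1 gene symbol, the brightest where there were several, and 9 of the 10 had such a probeset. The probeset of Loxl2 also carries a predicted locus in the platform annotation, so that no value is given for Loxl2. Values are log2 expression levels, on which a difference of 1 is a doubling.

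The RNA came from 6 mouse induced pluripotent stem (iPS) cell lines with 1 array each, 3 lines in either group. The shECAD clones 4, 8 and 9 carried a short hairpin RNA (shRNA) against E-cadherin, and the control clones 2, 3 and 4 carried one against luciferase, both from retrovirus. All 6 lines were also infected with retroviruses for Sox2, Klf4, Oct4 and c-Myc, had been made from embryonic fibroblasts of the OG2 mouse (a strain with a green fluorescent reporter under Oct4 control), and each line came from a single colony. They were split onto feeder cells on day 6, picked on day 14 and kept on feeders, which were taken away before RNA extraction. The labels name separate lines but no separate infections, so p-values measure the spread between these lines, and 3 arrays a group limit the precision.

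Collagen chains are hydroxylated in the endoplasmic reticulum before they fold. Prolyl 4-hydroxylase is a tetramer of catalytic alpha subunits (P4ha1, P4ha2) and beta subunits, and its 4-hydroxyproline keeps the triple helix stable at body temperature. The beta subunit, the product of P4hb, is protein disulfide isomerase, which also works alone on many other secreted proteins. Lysyl hydroxylases (Plod1, Plod2, Plod3) make the hydroxylysines that carry sugars and shape the later crosslinks. Outside the cell, the copper enzymes of the lysyl oxidase family oxidise lysines of collagen and elastin, and the aldehydes they leave join neighbouring chains. Fibroblasts and other matrix-forming cells are the usual producers of these enzymes.

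Cdh1, the gene of E-cadherin and the target of the shRNA, read 6.75, 6.92 and 7.81 in shECAD clones 4, 8 and 9, against 9.18, 9.60 and 9.07 in control clones 2, 3 and 4. Its log2 fold change, shECAD minus control as throughout, was -2.13 ± 0.27 (SE, limma adjusted p = 0.00683), and a two-sided exact permutation test gave p = 0.1, the smallest that 3 clones against 3 allow. The 10 pluripotency markers stood above the 25th percentile on all 6 arrays, with list means of 9.15 to 9.67 in shECAD clones and 9.62 to 9.98 in control clones, and limma called 0 of them (4 had an unadjusted p below 0.05, all lower, a level that 18% of all genes reached, 8.96% higher and 9.07% lower). The 16 fibroblast and feeder markers had list means of 6.98, 7.29 and 6.98 in shECAD clones 4, 8 and 9, against 6.27, 5.86 and 5.18 in control clones 2, 3 and 4. Of these 16, 13 had an unadjusted p below 0.05, all higher. By limma 11 rose and 0 fell, where 1.9% of all genes rose and 1.23% fell. The 11 became 4 without shECAD clone 8 and 7 without shECAD clone 4, shECAD clone 9, control clone 3 or control clone 4. In bulk RNA, a change in the number of cells of a type and a change in RNA per cell cannot be told apart.

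P4ha1, the catalytic subunit gene, and the lysyl oxidase genes Lox, Loxl1 and Loxl3 were higher in the shECAD clones, by 2.23-fold to 5.11-fold. P4ha2, Plod2 and Plod3 lay higher on average without passing the test, and P4hb and Plod1 lay close to or below the control level. Thus 4 of the 9 measured enzyme genes rose and 0 fell at a limma adjusted p below 0.05, where 3.12% of all genes were called (1.9% higher and 1.23% lower). At an unadjusted p below 0.05, 7 of the 9 were higher and 0 lower, where 8.96% of all genes were higher and 9.07% lower. The median log2 fold change of the 9 was 0.80, against 0.03 over all 19938 genes. In 5 of the 9 the groups did not overlap, all 5 with shECAD higher, where 11.1% of all genes separated in that direction and 23.6% in either. Without shECAD clone 8 the 4 calls became 2, P4ha1 and Lox. The count was 0 when variances were not moderated and 0 when the fibroblast and feeder marker mean entered the fit.

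**Figure D1:**
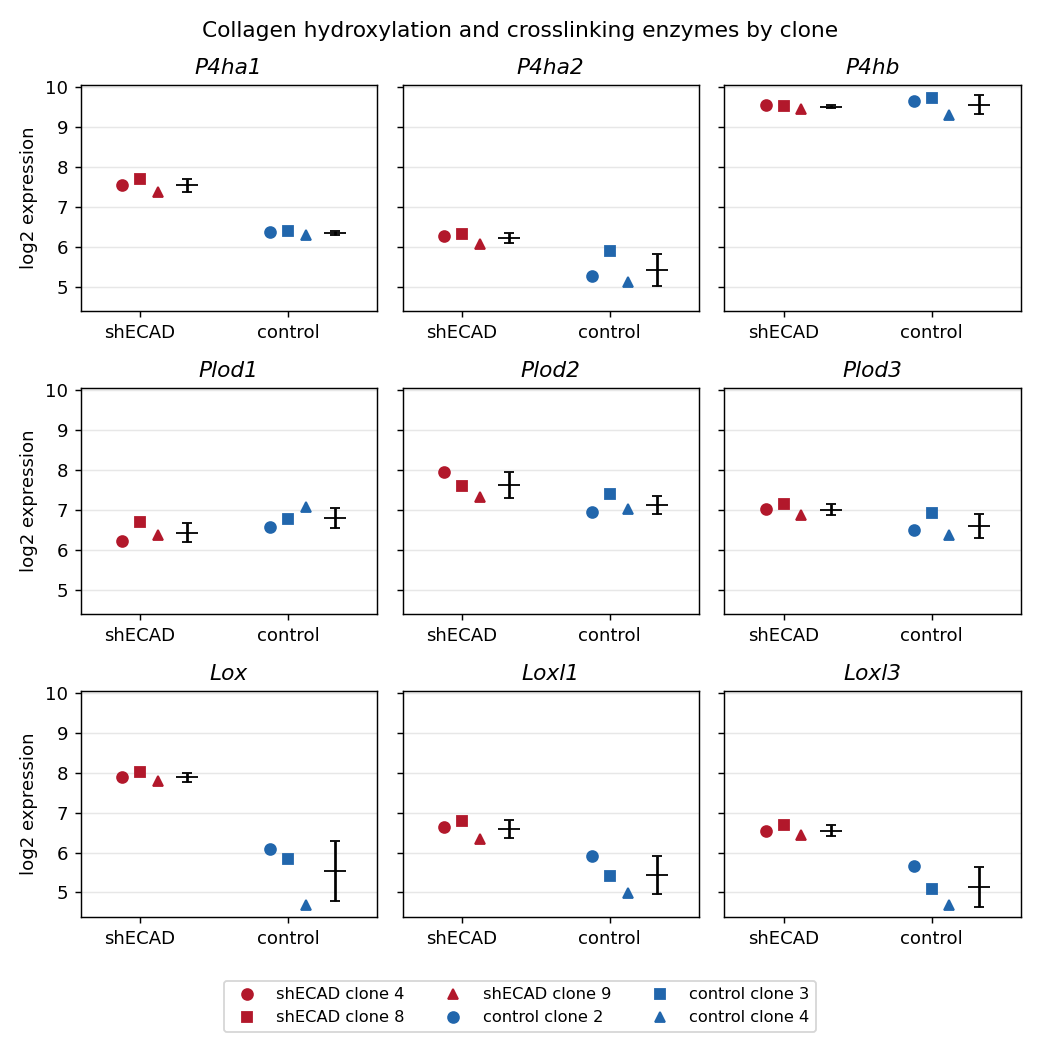
Log2 expression of the 9 measured enzyme genes in each clone, shECAD in red on the left and control in blue on the right of each panel. Black bars show the group mean ± SD (n = 3 clones). P4ha1, P4ha2, Lox, Loxl1 and Loxl3 have all shECAD clones above all control clones.

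P4ha1, which encodes the main catalytic subunit of prolyl 4-hydroxylase, read 7.56, 7.70 and 7.37 in shECAD clones 4, 8 and 9, against 6.37, 6.39 and 6.29 in control clones 2, 3 and 4. The groups stood 0.98 apart at their nearest clones, and the control clones differed among themselves by only 0.10. It rose 2.28-fold (95% confidence interval 1.81 to 2.89), with a log2 fold change of 1.19 ± 0.15 (SE) and a limma adjusted p of 0.007. It kept its call with any of the 6 clones left out, at adjusted p-values of 0.0103 to 0.0325 and log2 fold changes of 1.11 to 1.28.

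P4ha2, the gene of the second catalytic subunit, which forms its own tetramer with the beta subunit, read 6.26, 6.33 and 6.07 in shECAD clones, against 5.26, 5.89 and 5.11 in control clones 2, 3 and 4. Every shECAD clone was above every control clone, with control clone 3 nearest, 0.18 below the lowest shECAD clone. The log2 fold change was 0.80 ± 0.21 (SE), a ratio of 1.74 (95% interval 1.27 to 2.40), and it did not pass the test over all genes (limma adjusted p = 0.0694). Without control clone 3 it was 1.04 and passed (limma adjusted p = 0.026), and it also passed under array weights (0.0196) and among brighter genes alone (0.0476).

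P4hb, the beta subunit and disulfide isomerase gene, read 9.55, 9.54 and 9.47 in shECAD clones and 9.66, 9.75 and 9.31 in control clones 2, 3 and 4. The shECAD clones lay within the range of the control clones. Its log2 fold change was -0.05 ± 0.16 (SE, limma adjusted p = 0.901), and the 95% interval from -0.41 to 0.31 leaves out a rise of the size of P4ha1. The sign of this small value turned after quantile normalization (0.02), with array weights (0.04) and without control clone 3 (0.04).

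Within the prolyl hydroxylase family, P4ha1 alone of the 3 genes passed the test, and the genes were also set against each other. On each array the P4ha1 value was taken minus the P4hb value, and this difference was 1.24 ± 0.13 (SE) higher in shECAD clones. The same quantity for P4ha2 minus P4hb was 0.85 ± 0.17, and for P4ha1 minus P4ha2 it was 0.39 ± 0.22. The SE of such a difference came from the 3 clones of each group without moderation, unlike the limma SE of a single gene. In each of these 3 pairs the groups did not overlap, and each exact permutation test (two-sided) gave p = 0.1, the smallest possible, or 0.113 after Benjamini-Hochberg adjustment over the 9 within-family pairs compared.

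Promoter sequences from RefSeq (GRCm38.p6, 250 bases before to 50 after the start) matched 5 of the 10 genes: P4ha1, P4ha2, P4hb, Plod1 and Plod3. Those of the prolyl hydroxylase genes are shown because P4ha1 rose while P4hb, whose product shares its tetramer, did not pass the test. They lie at chr10:59323046-59323345 (plus strand) for P4ha1, chr11:54100674-54100973 (plus strand) for P4ha2 and chr11:120573204-120573503 (minus strand) for P4hb. Capitals mark ACGTG or GCGTG on either strand, the core letters of a hypoxia response element, and each sequence runs 5′ to 3′ on the strand of the gene.
P4ha1: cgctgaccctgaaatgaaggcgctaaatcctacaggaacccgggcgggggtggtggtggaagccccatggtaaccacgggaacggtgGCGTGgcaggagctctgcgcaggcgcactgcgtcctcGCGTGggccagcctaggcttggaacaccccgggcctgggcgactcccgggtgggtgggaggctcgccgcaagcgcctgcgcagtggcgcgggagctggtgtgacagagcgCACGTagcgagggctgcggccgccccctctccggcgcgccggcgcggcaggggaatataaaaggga
P4ha2: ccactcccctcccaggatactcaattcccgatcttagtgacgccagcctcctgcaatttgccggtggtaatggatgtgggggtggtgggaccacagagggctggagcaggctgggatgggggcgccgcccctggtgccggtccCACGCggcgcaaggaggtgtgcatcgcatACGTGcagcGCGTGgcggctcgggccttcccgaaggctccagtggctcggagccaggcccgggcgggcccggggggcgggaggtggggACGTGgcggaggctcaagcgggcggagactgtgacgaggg
P4hb: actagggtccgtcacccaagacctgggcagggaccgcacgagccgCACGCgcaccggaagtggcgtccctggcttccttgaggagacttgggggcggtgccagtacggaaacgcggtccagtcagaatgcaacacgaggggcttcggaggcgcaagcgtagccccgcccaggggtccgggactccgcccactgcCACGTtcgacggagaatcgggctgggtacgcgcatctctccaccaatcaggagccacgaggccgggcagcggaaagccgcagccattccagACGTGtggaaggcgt
The core letters occurred 3 times in the promoter of P4ha1, 4 times in that of P4ha2 and 3 times in that of P4hb. They occurred 2 times in that of Plod1 and 4 times in that of Plod3. At least 1 core was present in 43.8% of all 32851 promoter windows of this length, and 3 or more in 8.93%, with a match on both strands of CACGTG counted for each strand. The GC content was 70.3% for P4ha1 and P4ha2 and 67.0% for P4hb, against a median of 52.7% over all windows. The TEAD core GGAATG was found in 1 of the 5, that of P4hb, and in 14.7% of all windows, and the AP-1 motif TGANTCA in 0 of the 5 and in 7.81% of all windows. P4hb thus held as many hypoxia cores as P4ha1, and a match describes letters, not a bound site.

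The lysyl hydroxylase genes did not pass the test. Plod2, which encodes the enzyme that hydroxylates the lysines of the collagen telopeptides, read 7.95, 7.59 and 7.32 in shECAD clones 4, 8 and 9, against 6.95, 7.39 and 7.03 in control clones 2, 3 and 4. The groups overlapped through shECAD clone 9, which lay below control clone 3. The log2 fold change was 0.50 ± 0.20 (SE, limma adjusted p = 0.217), with a 95% interval from 0.06 to 0.94. Plod3, whose product also transfers glucose and galactose onto hydroxylysine, read 7.01, 7.14 and 6.87 in shECAD clones, against 6.50, 6.93 and 6.36 in control clones 2, 3 and 4. Again control clone 3 overlapped with shECAD clone 9, and the log2 fold change was 0.41 ± 0.18 (SE, limma adjusted p = 0.27).

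Plod1, which encodes the enzyme for lysines of the triple helix, read 6.23, 6.70 and 6.37 in shECAD clones, against 6.56, 6.76 and 7.06 in control clones 2, 3 and 4. It lay lower on average with overlap, and its log2 fold change was -0.36 ± 0.19 (SE, limma adjusted p = 0.347). It was also set against both relatives. The difference Plod2 minus Plod1 on each array was 0.86 ± 0.33 (SE) higher in shECAD clones and Plod3 minus Plod1 0.77 ± 0.28 higher, both without overlap (exact permutation p = 0.1 each). Plod2 minus Plod3 differed by 0.09 ± 0.18, with overlapping groups (exact permutation p = 0.7). Plod2 and Plod3 were also the second closest pair among the 9 genes when each was centred on its own mean, with a root mean square difference of 0.18 over the 6 clones.

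Of the lysyl oxidase genes, Lox, Loxl1 and Loxl3 rose. Lox, which encodes the founding enzyme of the family, read 7.89, 8.01 and 7.79 in shECAD clones 4, 8 and 9, against 6.10, 5.84 and 4.69 in control clones 2, 3 and 4. The shECAD clones lay within 0.22 of each other, whereas the control clones spanned 1.41, with control clone 4 lowest. The nearest clones of the groups were 1.69 apart. Lox rose 5.11-fold (95% interval 3.20 to 8.16), with a log2 fold change of 2.35 ± 0.30 (SE) and a limma adjusted p of 0.007, and it ranked 11 of 19938 genes by log2 fold change. It was called in all 6 fits with a clone left out, with log2 fold changes of 2.63 with control clone 2 removed and 1.93 with control clone 4 removed as the extremes.

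Loxl3, the gene of a family member with scavenger receptor repeats before its catalytic domain, read 6.53, 6.69 and 6.43 in shECAD clones, against 5.67, 5.08 and 4.68 in control clones 2, 3 and 4. The lowest shECAD clone was 0.76 above the highest control clone. It rose 2.65-fold, or by 1.41 ± 0.23 (SE) on the log2 scale, at a limma adjusted p of 0.0148. The call ended without shECAD clone 8 (limma adjusted p = 0.0636).

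Loxl1, whose product is known for crosslinking elastin, read 6.65, 6.79 and 6.34 in shECAD clones, against 5.93, 5.41 and 4.97 in control clones 2, 3 and 4. The groups were 0.41 apart at shECAD clone 9 and control clone 2. It rose 2.23-fold, or by 1.15 ± 0.23 (SE) on the log2 scale, at a limma adjusted p of 0.0308. It was called in 2 of the 6 fits with a clone left out, and the call ended when shECAD clone 4, shECAD clone 8, control clone 3 or control clone 4 was left out, at limma adjusted p-values of 0.0753 (control clone 3) to 0.107 (control clone 4).

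The log2 fold change of Lox was larger than those of Loxl1 and Loxl3. Lox minus Loxl1 on each array was 1.20 ± 0.22 (SE) higher in shECAD clones and Lox minus Loxl3 was 0.95 ± 0.22 higher. Loxl3 minus Loxl1 was 0.25 ± 0.07 higher. The groups did not overlap in any of the 3 pairs, with exact permutation p = 0.1 each, the smallest possible. Of the 9 within-family pairs, 8 did not overlap, and the count was also 8 after quantile normalization. No share over all pairs of genes was computed for this count. It is not independent of the changes above, as 5 of the 9 genes separated the groups singly, against 23.6% of all genes. Loxl1 and Loxl3 were the closest of all pairs of the 9 genes, with a root mean square difference of 0.14 over the 6 clones after centring.

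**Figure D2:**
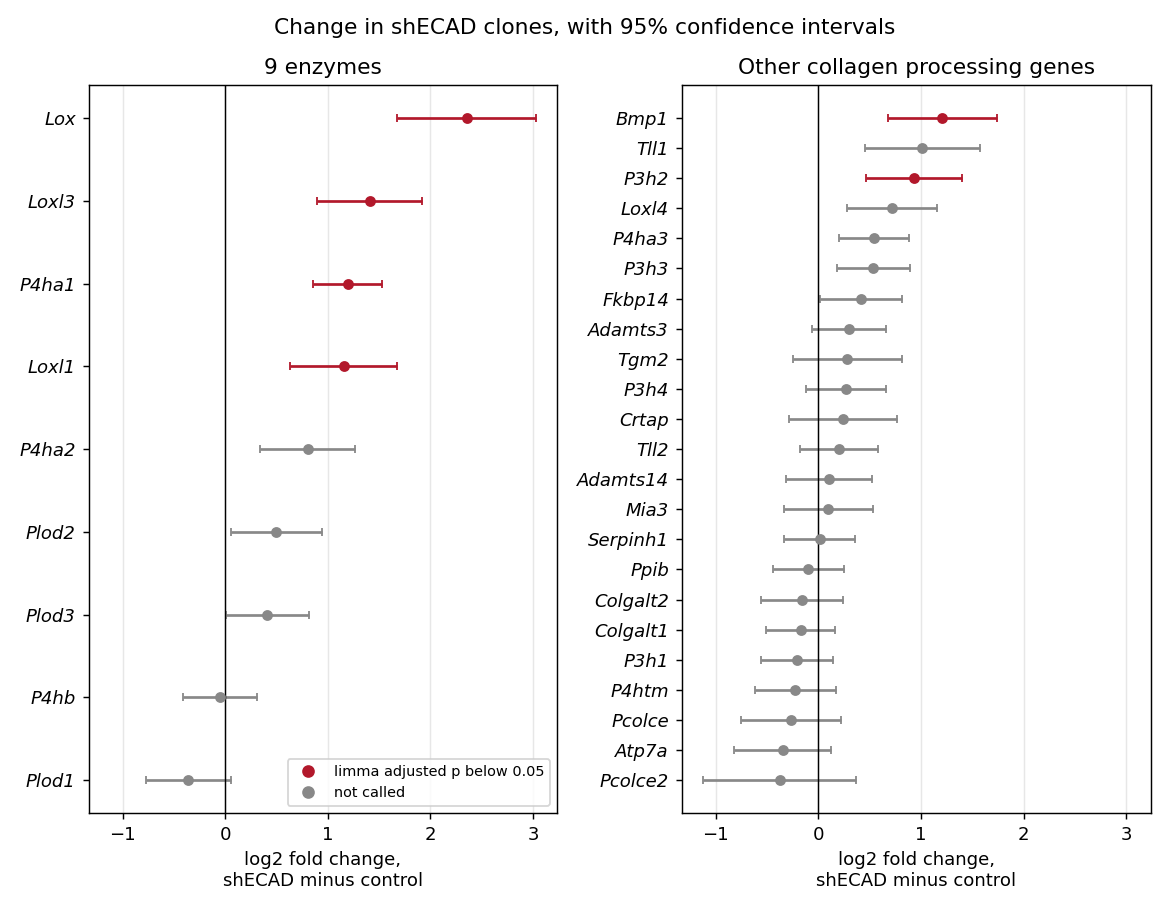
Log2 fold changes (shECAD minus control) with 95% confidence intervals from limma, for the 9 measured enzyme genes on the left and 23 other collagen processing genes on the right. Red marks a limma adjusted p below 0.05, which P4ha1, Lox, Loxl1 and Loxl3 reached on the left and Bmp1 and P3h2 on the right.

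The enzyme genes differed in how they varied among the control clones. Lox, Loxl1 and Loxl3 were each highest in control clone 2 and lowest in control clone 4, with spans of 1.41, 0.95 and 0.99. The fibroblast and feeder marker mean was also highest in control clone 2 (6.27) and lowest in control clone 4 (5.18). P4ha1 spanned 0.10 over the same clones. Among the control clones, P4ha1, P4ha2, Plod2, Plod3 and P4hb were each highest in control clone 3. All of these but Plod2 were lowest in control clone 4, as the lysyl oxidase genes were. Plod1 and Plod2 were lowest in control clone 2, and Plod1 was highest in control clone 4. In a fit that also held the marker mean, P4ha1 had a log2 fold change of 0.999 ± 0.37 (SE), against 0.69 ± 0.38 for Lox, 0.28 ± 0.36 for Loxl3 and 0.02 ± 0.38 for Loxl1. Here limma called 0 genes of the whole table (840 had an unadjusted p below 0.05), in which the median SE was 0.41 against 0.18 without the covariate. The marker mean itself separated the groups, at 6.98 to 7.29 in shECAD clones and 5.18 to 6.27 in control clones. The effect of the group and that of the marker mean therefore cannot be told apart in this fit, for any of these genes.

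**Figure D3:**
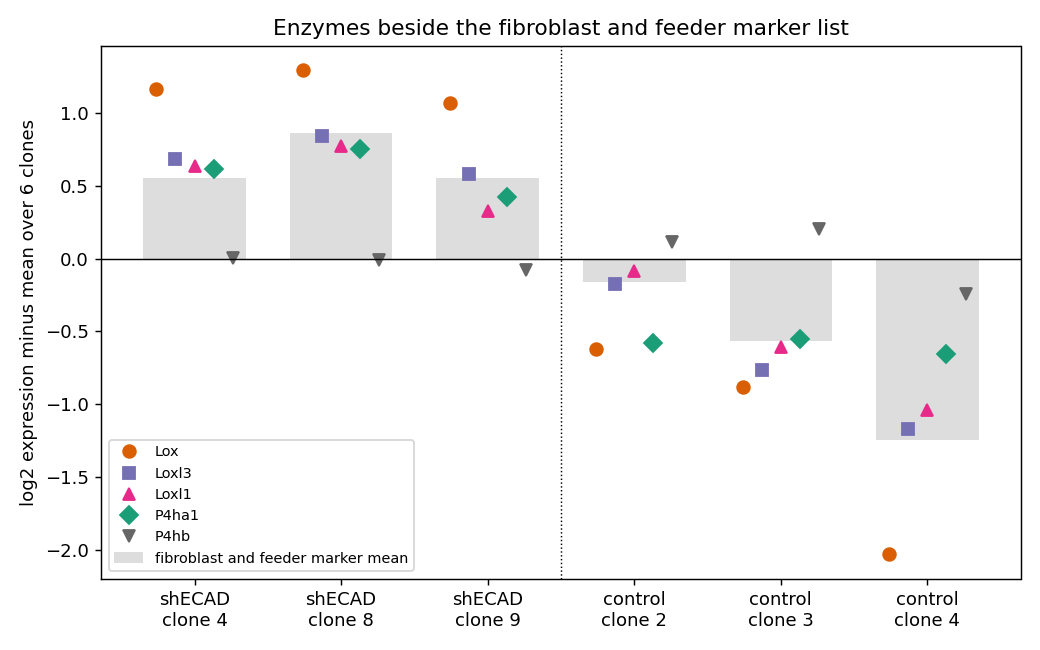
Log2 expression of Lox, Loxl3, Loxl1, P4ha1 and P4hb minus each gene's mean over the 6 clones, with shECAD clones left of the dotted line and control clones right of it. Grey bars show the mean of the 16 fibroblast and feeder markers, centred the same way. All genes shown and the bars are lowest in control clone 4, and P4ha1 spans 0.10 over the control clones.

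Among all genes, those with the pattern closest to Lox over the 6 clones were Postn, Anxa3, Cdh11, Timp3 and Igfbp7, with root mean square differences of 0.20 to 0.25 between centred log2 values. Postn encodes the matrix protein periostin, Cdh11 a cadherin of mesenchymal cells and Timp3 a metalloproteinase inhibitor. Those closest to Loxl3 were Parva, Axl, Csf1, Cav1 and App (0.09 to 0.10), of which Cav1 encodes the membrane protein caveolin 1 and Csf1 a macrophage growth factor. Those closest to P4ha1 were Samd4, Pxdc1, Tpm2, Dock11 and Copz2 (0.10 to 0.15), of which Tpm2 encodes a tropomyosin and Copz2 a coat protein of vesicles between the Golgi and the endoplasmic reticulum. The 3 sets shared no gene, but this followed from the distances between Lox, Loxl3 and P4ha1 themselves (root mean square differences of 0.29 to 0.71). At such distances no gene could belong to a pair of these sets.

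**Figure D4:**
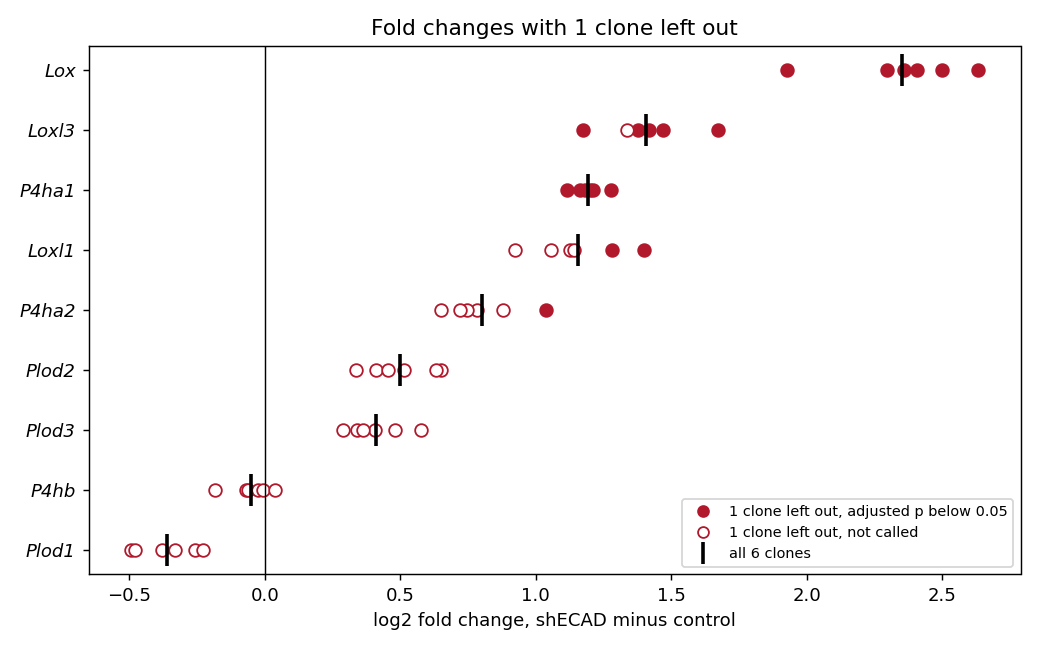
Log2 fold changes of the 9 enzyme genes (shECAD minus control) in 6 fits that each leave out 1 clone. Filled circles passed a limma adjusted p below 0.05, open circles did not, and black ticks show the fit of all 6 clones. Lox and P4ha1 are filled in all 6 fits, Loxl3 in 5, Loxl1 in 2 and P4ha2 in 1.

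Of 23 measured genes for other steps of collagen processing, 2 rose and 0 fell, where 1.9% of all genes rose and 1.23% fell. The median log2 fold change of the 23 was 0.20. At an unadjusted p below 0.05, 7 were higher and 0 lower, where 8.96% of all genes were higher and 9.07% lower. Bmp1 encodes the proteinase that removes the C-propeptide of fibrillar procollagens and also releases active lysyl oxidase from its precursor. It read 7.27, 7.42 and 7.35 in shECAD clones, against 6.70, 6.10 and 5.61 in control clones 2, 3 and 4, and rose 2.31-fold, or by 1.21 ± 0.24 (SE) in log2, at a limma adjusted p of 0.0296. P3h2, the gene of a prolyl 3-hydroxylase, rose 1.91-fold, or by 0.93 ± 0.21 (SE) in log2, at a limma adjusted p of 0.0439. Both calls ended without shECAD clone 8, shECAD clone 9, control clone 3 or control clone 4, that of Bmp1 also without shECAD clone 4, and that of P3h2 also after quantile normalization (0.0754). The list held 4 calls without control clone 2, where Loxl4 and Tll1 joined Bmp1 and P3h2.

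Several partners of the hydroxylases, picked out after their values were seen, did not pass the test. Serpinh1, which encodes the collagen chaperone HSP47, had a log2 fold change of 0.01 ± 0.16 (SE). The value was -0.21 ± 0.16 for P3h1, 0.24 ± 0.24 for Crtap and -0.10 ± 0.16 for Ppib, whose products form the prolyl 3-hydroxylation complex. Among other relatives of the members, the lysyl oxidase gene Loxl4 had a log2 fold change of 0.72 ± 0.20 (SE). For the prolyl hydroxylase subunit gene P4ha3 it was 0.54 ± 0.15, and neither passed the test (limma adjusted p = 0.0817 and 0.0865). In the same list, P3h3 had 0.54 ± 0.16, Fkbp14 0.42 ± 0.18, P3h4 0.27 ± 0.17 and P4htm -0.22 ± 0.18, also without a call. The groups did not overlap for P3h3 and Fkbp14, with shECAD higher. Of the 23 genes of the list, 15 had log2 fold changes above 0 and 8 below.

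The folding enzymes and chaperones that share the endoplasmic reticulum with P4hb showed 0 calls by limma among 10 genes, where 3.12% of all genes were called. Their median log2 fold change was 0.03. At an unadjusted p below 0.05, 2 of the 10 were higher and 0 lower, and 18% of all genes reached that level in either direction. The values farthest from 0 were those of the oxidase gene Ero1a, at 0.46 ± 0.14 (SE), Txndc5, at 0.41 ± 0.14, and Pdia3, at -0.36 ± 0.22. Ero1a was called after quantile normalization (limma adjusted p = 0.0493).

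Many substrates of these enzymes rose as well. Of 19 measured collagen, elastin and associated matrix genes, 10 rose and 0 fell, where 1.9% of all genes rose and 1.23% fell. The median log2 fold change of the 19 was 0.82. At an unadjusted p below 0.05, 15 were higher and 0 lower, where 8.96% of all genes were higher and 9.07% lower. The called genes with the largest changes were Col12a1 (4.11-fold), Col1a1 (3.92-fold), Col1a2 (3.58-fold), Col6a3 (2.48-fold), Fbln5 (2.11-fold) and Col5a2 (2.09-fold). Col1a1 and Col1a2 encode the chains of type I collagen, the main substrate of prolyl hydroxylase and lysyl oxidase in connective tissue. Col1a1 read 9.70, 9.90 and 9.84 in shECAD clones, against 8.72, 7.77 and 7.03 in control clones 2, 3 and 4, with the same clone lowest as for Lox. Leaving out shECAD clone 8 cut the 10 calls to 1 and leaving out control clone 4 cut them to 2. The count was 3 when shECAD clone 4 was absent, 4 when control clone 3 was and 6 when shECAD clone 9 was. Col1a1 and Col1a2 are also among the 16 fibroblast and feeder markers, whose means were given above, and the part of those cells in the result was not tested.

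P4ha1, P4ha2, Plod2 and Lox are known as genes induced by hypoxia, and the prolyl hydroxylases that control the hypoxia factors use the same cofactors as those of collagen. Of 16 genes of the hypoxia response and its dioxygenases, 5 rose and 1 fell, where 1.9% of all genes rose and 1.23% fell. The median log2 fold change of the 16 was 0.45, with 11 values above 0 and 5 below. At an unadjusted p below 0.05, 9 were higher and 2 lower, where 8.96% of all genes were higher and 9.07% lower. Bnip3 (2.60-fold), Ndrg1 (2.09-fold), Pgk1 (1.89-fold), Adm (1.77-fold) and Ldha (1.72-fold) rose, at limma adjusted p-values of 0.0467, 0.0319, 0.0176, 0.0337 and 0.0339. Epas1, which encodes a hypoxia-inducible factor, had a log2 fold change of -1.12 (limma adjusted p = 0.0325) and was the member that fell. None of these 6 calls held when shECAD clone 8 was left out, and that of Epas1 ended with any clone left out or after quantile normalization. The rises numbered 3 in the absence of shECAD clone 4 or control clone 2, 2 in that of control clone 3, and 1 in that of shECAD clone 9 (Pgk1) or control clone 4 (Egln3, which was not called with all 6 clones). They also numbered 3 after median centring of the arrays and when the probesets of a gene were averaged.

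Markers of other cell types were read beside the enzymes. The list means of 5 smooth muscle genes were 6.81 to 7.13 in shECAD clones and 5.16 to 5.71 in control clones. Of these 5, 4 had an unadjusted p below 0.05, all higher. By limma 3 rose and 0 fell, where 1.9% of all genes rose and 1.23% fell. The 3 were Acta2 (10.7-fold), Tagln (3.31-fold) and Cnn1 (2.89-fold), which encode contractile or actin-binding proteins. limma called 0 of 8 endoderm, 0 of 5 trophoblast, 0 of 5 endothelial and blood, and 0 of 4 neural markers, of which 3, 1, 2 and 0 had an unadjusted p below 0.05, against 18% of all genes. Their list means were 5.34 to 5.67, 4.80 to 5.16, 4.28 to 4.31 and 5.64 to 5.68 in shECAD clones, against 4.93 to 5.37, 4.49 to 4.83, 3.92 to 4.37 and 5.73 to 5.89 in control clones. The fibroblast and feeder list had 0 of 16 markers below the 25th percentile on all shECAD arrays and 1 on all control arrays. Its 11 called genes were Postn, which rose 4.79-fold, Fbln2 4.28-fold, Ccdc80 4.13-fold, Cdh11 3.83-fold, Thy1 3.46-fold, Pdgfrb 3.20-fold, Prrx1 2.94-fold, Twist2 1.86-fold and S100a4 1.77-fold, and the type I collagen genes given above. Its 5 uncalled genes had log2 fold changes of 0.82 ± 0.29 (SE) for Col3a1, 0.62 ± 0.18 for Fap, 0.48 ± 0.37 for Dcn, 0.38 ± 0.33 for Pdgfra and -0.23 ± 0.41 for Lum.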

How the data were processed

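Total RNA of 6 iPS lines was labelled from 100 ng per array, per the labels' protocols. The deposited values are log2 expression levels per probeset, for which the submitters' processing notes name RMA and Partek (version, settings and genome build: not given in the sources used here). Array medians ran from 5.11 to 5.30, and the values were used as deposited. Of 28853 probesets, 21789 had 1 gene symbol, 1621 several and 5443 none in the platform annotation, and 21698 matched a RefSeq gene table (GRCm38.p6, names only) by Entrez identifier. The brightest probeset stood for each of 19938 genes, with no filter on dim ones.

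Groups were compared with limma 3.58.1 (lmFit, eBayes) in R 4.3.3, two-sided and without covariates, with Benjamini-Hochberg adjustment over all genes and a call at an adjusted p below 0.05. Within-family differences were compared by exact permutation tests (scipy 1.17.1) over 20 labellings. Their SE was not moderated, so it is not on the same footing as the moderated SE of single genes. On simulated data for this comparison over 19938 genes, limma found 2% of genes shifted by 0.5 (log2), 88% of those shifted by 1 and 100% at shifts of 2 or 3, and called 7 unshifted genes. Values were drawn independently for each gene from a normal distribution with limma's moderated variance, with 50 genes taken at random for each shift. The shares need not hold for genes with a larger SE. The median SE was 0.18, against 0.30 for Lox and 0.23 for Loxl1 and Loxl3.

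The members, the lists and the tests were chosen with earlier results of these data known. The text names all members, Cdh1, in each list up to 6 called genes ranked by change (where none was called, the 3 with the most change, except that marker lists without calls are given by counts), and for the 3 members with the largest change the 5 genes nearest in centred pattern. Serpinh1, P3h1, P3h3, P3h4, P4htm, Fkbp14, Crtap, Ppib, Loxl4, P4ha3, Tll1 and Egln3 were named outside this rule after their values were seen. So were the other fibroblast and feeder markers, given so that the list is shown whole. Fkbp10, Adamts2, Fbn1 and Efemp2 were listed but not analysed here. Alternatives covered scaling, filtering, probeset choice, prior, array weights, moderation, a marker covariate, the threshold and each clone left out. Figures used matplotlib 3.10.9.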

Additional observations from a re-analysis of the deposited data

How the results depend on the processing

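The count of 4 enzyme genes was within 1.5 times in 13 of 16 alternative settings. It was 0 with no variance moderation, where limma's ordinary p-values called 3 genes of the whole table and 5 of the 9 members had an unadjusted p below 0.05, and 0 with the fibroblast and feeder marker mean as a covariate. With 1 clone left out it ran from 2 (without shECAD clone 8) to 4. The 4 without control clone 3 were Lox, Loxl3, P4ha1 and P4ha2, with P4ha2 in the place of Loxl1. The count of 2 other collagen processing genes was 1 after quantile normalization and among brighter genes alone, 0 with no moderation and with the covariate, 5 at an adjusted p below 0.1, and 0 to 4 with 1 clone left out. Over the whole table the calls numbered 1067 with array weights, 156 without shECAD clone 8 and 146 without control clone 4. Cdh1 kept its direction in all 16 settings, with log2 fold changes of -2.13 (limma adjusted p = 0.194) with no moderation and -2.18 (limma adjusted p = 0.999) with the covariate, where its call was lost. The sign turned for P4hb after quantile normalization (0.024), with array weights (0.040) and without control clone 3 (0.036), and for Plod1 with the covariate (0.020). With 1 clone left out P4hb ran from -0.18 to 0.04. The other 7 members kept their sign in all 16 settings, and the count of within-family pairs without overlap was 8 after quantile normalization. Some of the 16 settings left the log2 fold changes of Cdh1 and the members as they were, so no sign could turn there. These were brighter genes alone, averaged or single probesets, an intensity trend in the prior, no moderation and the threshold of 0.1. Leaving out a clone cannot create overlap, and averaging probesets left the members' values as they were. Fits without a clone hold fewer samples; otherwise the cause was not tested. No paired analysis was possible because the groups share only 1 clone number, which names separate lines. Precision is limited by 3 arrays a group: a change of 0.5 was rarely recovered in simulation.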
